A study of Mus musculus with 156 samples.

Results

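Early Firre rescue covers the first hours after the long noncoding RNA Firre was switched on in mouse embryonic stem cells (ESCs) that lack it. Of the 156 RNA-seq libraries of the series, 16 carried this comparison. They came from the short doxycycline time course of a pair of Firre knockout (KO) lines, called Rescue lines in the labels. One line has a doxycycline-inducible Firre transgene and the other is its genetically matched control. Each was sampled at 0, 90, 120 and 150 min after doxycycline, with 2 replicates per line and time. The libraries were chosen by their labels and not by any measured value. For each gene the early response was the mean of 90, 120 and 150 min minus 0 min in the transgene line, minus the same change in the control line. A change shared by both lines after doxycycline therefore cancelled. Libraries of the same lines at 30 and 60 min served to order the onset, and the same contrast in a pair of wild-type (WT) lines, which keep their own Firre gene, is called early overexpression.

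All lines were kept on gelatin, and their serum medium contained LIF together with inhibitors of GSK3 (CHIR99021) and MEK (PD0325901). Doxycycline was added to transgene and control lines alike, on the day after seeding and after a change of medium. Each combination of genotype and transgene is 1 line, so features of a line and of its genotype cannot be told apart. The labels do not say whether replicates were separate cultures, and the p-values then measure only the spread between these libraries, which may be technical. The promoter and insertion site of the transgene and the extent of the deletion are not given in the sources used here.

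Firre is transcribed from the X chromosome, carries many copies of a local repeat and is largely kept in the nucleus. It is known to bind the nuclear matrix protein hnRNPU and has been reported to lie near genes on other chromosomes. In these lines the transgene supplies the RNA to cells without the native transcript, and the first hours address which genes respond earliest and in what order.

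The 16 libraries held 23132931 to 35564207 estimated reads each, within the 19013639 to 37194952 of the 96 short-course libraries, and 3.45% to 4.07% of reads from mitochondrially encoded genes. The ESC label was matched by high levels of the 8 identity markers in all 16, from 85.7 to 93.4 TPM for Zfp42 up to 4474 to 5090 TPM for Dppa5a, with summed TPM of 7952 to 8487 in control and 7547 to 8400 in transgene libraries. The summed levels of the 13 fibroblast or feeder genes (306 to 359 and 298 to 370 TPM), the 13 primitive endoderm genes (343 to 367 and 335 to 378), the 13 trophoblast genes (61.8 to 67.7 and 62.9 to 71.7) and the 10 neuroectoderm genes (60.3 to 66.8 and 56.2 to 66.6) overlapped between the lines. The 10 mesendoderm genes summed to 9.77 to 12.0 and 9.68 to 11.4 TPM, with Cer1 at 0. Replicate 1 of the KO control at 0 min stood apart on the second principal component, at -12.4 against -6.11 to 7.21 in the other 15 libraries. Of the 6 genes called below, 3 were called without it (Firre, Shf and Duox1). The same 3 were called without replicate 2 of the transgene line at 0 min, and 2 (Firre and Shf) without its replicate 1.

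Within 150 min, 6 of 18009 tested genes were called at an adjusted p below 0.05 (0.0333% of all genes tested), and 4 rose while 2 fell. Firre rose by far the most, by 7.86 ± 0.42 (log2 fold change ± SE). Among the other 5, Shf and Duox1, a convergent gene pair on chromosome 2, rose by 1.35 ± 0.16 and 2.72 ± 0.48, and the ciliary transport gene Bbs4 rose by 0.41 ± 0.09. The naive pluripotency regulator Prdm14 fell by 0.31 ± 0.06 and the kinase gene Sgk1 fell by 0.26 ± 0.05. The median over all genes tested was -0.0035, and 1089 genes had an unadjusted p below 0.05 (6.05%). The change from 0 min alone called 264 genes in the transgene line (1.47%) and 65 in the control line (0.361%).

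The promoter sequences of the called genes that rose other than Firre are shown because Shf and Duox1 lie next to each other and rose together, with Bbs4 for comparison. Each is the 250 bases before a RefSeq transcript start (GRCm38.p6, the mm10 assembly), printed 5′ to 3′ on the strand of the gene. Shf is at chr2:122369148-122369397 on the minus strand, Duox1 at chr2:122315422-122315671 on the plus strand and Bbs4 at chr9:59353509-59353758 on the minus strand. Capitals mark matches, on either strand, to the motifs searched, which were the GC box GGGCGG, the TATA box TATAAA, the CCAAT box CCAAT and the E box CACGTG.
Shf: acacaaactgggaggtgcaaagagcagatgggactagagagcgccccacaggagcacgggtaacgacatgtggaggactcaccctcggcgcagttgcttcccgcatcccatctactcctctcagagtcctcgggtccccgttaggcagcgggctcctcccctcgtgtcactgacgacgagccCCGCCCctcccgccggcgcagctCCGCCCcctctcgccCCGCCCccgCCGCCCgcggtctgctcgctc
Duox1: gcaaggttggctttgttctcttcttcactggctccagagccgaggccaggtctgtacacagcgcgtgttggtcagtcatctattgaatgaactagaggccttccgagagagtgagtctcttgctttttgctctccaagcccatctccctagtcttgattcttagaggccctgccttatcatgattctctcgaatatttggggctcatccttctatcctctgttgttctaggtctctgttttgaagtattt
Bbs4: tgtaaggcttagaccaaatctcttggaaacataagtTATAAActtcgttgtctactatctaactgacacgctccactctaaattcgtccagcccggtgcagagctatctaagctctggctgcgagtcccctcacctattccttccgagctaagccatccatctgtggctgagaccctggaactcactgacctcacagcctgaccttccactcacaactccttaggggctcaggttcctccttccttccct
The Shf window held 4 GC boxes and 24 CpG dinucleotides. The Duox1 window held none of the 4 motifs and 5 CpG dinucleotides, and the Bbs4 window held 1 TATA box and 6 CpG dinucleotides. Over 32851 mouse promoter windows of the same length, 32.7% held a GC box, 12.4% a TATA box, 33.8% a CCAAT box and 6.02% an E box. These letters describe the windows, and no motif searched was present in all 3. Shf has a second RefSeq start, whose window held 5 GC boxes.

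Firre itself (native gene at chrX:50555744-50635321, minus strand, mm10) gives the timing of the induction. On the TPM scale, which corrects for transcript length and library size, the 2 KO control libraries at 0 min had 1.09 and 1.62 and the 2 transgene libraries had 1.38 and 1.94. Doxycycline for 30 min brought the transgene libraries to 130 and 142 TPM and 60 min to 269 and 282. They held 419 and 451 TPM at 90 min, 459 and 471 at 120 min, then 407 and 433 at 150 min. The control libraries stayed between 0.726 and 2.02 at 30 to 150 min, so the lines did not overlap at any induced time. For scale, the WT control libraries held 19.2 to 32.0 TPM at 0 to 150 min, a level in other lines that was not tested against the rescue. The response at 30 min was already 7.05 ± 0.45, and the early response had an adjusted p of 1.67e-20. The estimated counts do not separate transgene from native transcripts, and the few reads of the KO control show how much the deposited quantification assigns to Firre without the transgene.

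Shf encodes an SH2 domain adaptor protein. At 0 min it stood at 7.25 and 6.56 TPM in the KO control and at 5.995 and 6.72 TPM in the transgene line. In the transgene line it then reached 15.99 and 14.4 TPM at 90 min, 20.7 and 26.2 at 120 min and finally 26.4 and 25.5 TPM at 150 min, while the control libraries held 7.05 and 8.53, 9.27 and 7.69, and 7.56 and 8.46 at the same times. Every induced transgene library at 90 to 150 min was above every control library. The early response had an adjusted p of 3.65e-08 (edgeR quasi-likelihood test, Benjamini-Hochberg). The control line itself changed by 0.33 ± 0.11 from 0 min (adjusted p = 0.19) and the transgene line by 1.68 ± 0.11 (adjusted p = 2.78e-19), and the response is the second minus the first. Over the 5 sampled times from 30 to 150 min the response of Shf was 0.06 ± 0.20, 0.47 ± 0.19, 0.97 ± 0.19, 1.35 ± 0.18 and 1.72 ± 0.19.

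Duox1 encodes a dual oxidase, a membrane enzyme that makes hydrogen peroxide, and its transcript was scarce in these cells. Its libraries at 0 min held 9 and 17 estimated reads in the control (0.0846 and 0.119 TPM) and 7 and 6 in the transgene line (0.0577 and 0.0573 TPM). In the transgene line it then reached 0.206 and 0.231 TPM at 90 min, 0.285 and 0.446 at 120 min and finally 0.391 and 0.596 TPM at 150 min, where the counts were 45 and 83 reads. The control libraries held 0.0465 to 0.121 TPM at 90 to 150 min, below every transgene library. The early response had an adjusted p of 0.00202. It rested on few reads at 0 min, and without replicate 2 of the control at 0 min it was 2.35 (adjusted p = 0.19) and without replicate 1 of the transgene line at 0 min 2.70 (adjusted p = 0.093).

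In the GENCODE M21 annotation (mm10), Duox1 lies at chr2:122315672-122347972 on the plus strand and Shf at chr2:122348892-122369162 on the minus strand, so that their 3′ ends face each other across 919 bp without a shared exon. The libraries are unstranded, and reads that run past the end of one gene into the other cannot be told apart from its own. Of the 12 genes listed for this neighbourhood 7 were tested, and Duox1 and Shf were the 2 called, both higher, beside 0.0222% of all genes called higher. The list was made around these 2 genes and holds them, so their count in it is a description and no evidence of a wider local response. Among tested genes with a matched position, the next on the Duox1 side was Sord, with a response of 0.02 ± 0.08. The next on the Shf side was Gatm, with 0.23 ± 0.42 (adjusted p = 0.95). Taking 3 such neighbours on each side of the 5 called genes other than Firre gave 26 distinct genes. The only neighbours called were Duox1 and Shf themselves, and Arih1 beside Bbs4 was the other one with an unadjusted p below 0.05.

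Bbs4 encodes a subunit of the BBSome, the complex that carries membrane proteins to and from the cilium. It stood at 11.1 and 10.99 TPM in the control and 11.6 and 10.2 TPM in the transgene line at 0 min. At 90 min the transgene libraries held 11.6 and 12.7 TPM against 11.8 and 9.73 in the control, which overlap. By 120 min they held 13.1 and 12.8 against 10.7 and 10.2, and by 150 min 13.5 and 13.1 against 10.7 and 9.97, with no overlap. The early response had an adjusted p of 0.0454, close to the threshold. Bbs4 (chr9:59321990-59353508, minus strand) overlaps exons of Adpgk on the opposite strand, whose response was 0.06 ± 0.06, and the ubiquitin ligase gene Arih1, 34749 bp away, had 0.17 ± 0.06 (adjusted p = 0.67). The KO lines differed for Bbs4 at 0 min by -0.18 ± 0.08 (transgene minus control, adjusted p = 0.32), a difference that is subtracted in the response. It lost its call when any of 12 of the 16 libraries was left out (responses of 0.37 to 0.47 with adjusted p up to 0.48), which include all 4 libraries at 0 min.

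Prdm14 (chr1:13113457-13127163, minus strand) encodes a PR-domain regulator that supports naive pluripotency and germ cell formation. It stood at 34.2 and 34.4 TPM in the control and at 36.8 and 35.4 TPM in the transgene line at 0 min. In the transgene line it then went to 33.1 and 32.3 TPM at 90 min, 32.5 and 32.5 at 120 min and finally 29.5 and 30.7 TPM at 150 min. The control libraries held 36.3 and 35.3, 38.3 and 38.7, and 35.4 and 35.9 at those times, all above the transgene libraries. The fall relative to control had an adjusted p of 0.00999 and was made up of a change of -0.19 ± 0.04 in the transgene line (adjusted p = 0.0077) and of 0.12 ± 0.04 in the control line (adjusted p = 0.22). Without replicate 1 of the control at 0 min the response was -0.27 (adjusted p = 0.65), and without replicate 1 or replicate 2 of the transgene line at 0 min it was -0.30 (adjusted p = 0.19 and 0.13).

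Sgk1 (chr10:21882184-21999903, plus strand) encodes the serum- and glucocorticoid-regulated kinase, an enzyme of ion transport and survival signalling. At 0 min it stood at 163 and 171 TPM in the control and 166 and 164 TPM in the transgene line. In the transgene line it went to 150 and 136 TPM at 90 min, 133 and 123 at 120 min and finally 123 and 125 TPM at 150 min, while the control libraries held 159 and 160, 159 and 154, and 170 and 149. All induced transgene libraries at the same time were below the control libraries, and the widest gap was at 150 min. The response had an adjusted p of 0.0454. It kept its call without 3 single libraries only, which were replicate 2 of the control at 0 min and replicate 1 of the transgene line at 90 and at 120 min, and without each of the other 13 the adjusted p lay between 0.073 and 1. The lowest response in size, -0.20, was the one without replicate 1 of the control at 0 min.

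**Figure D1:**
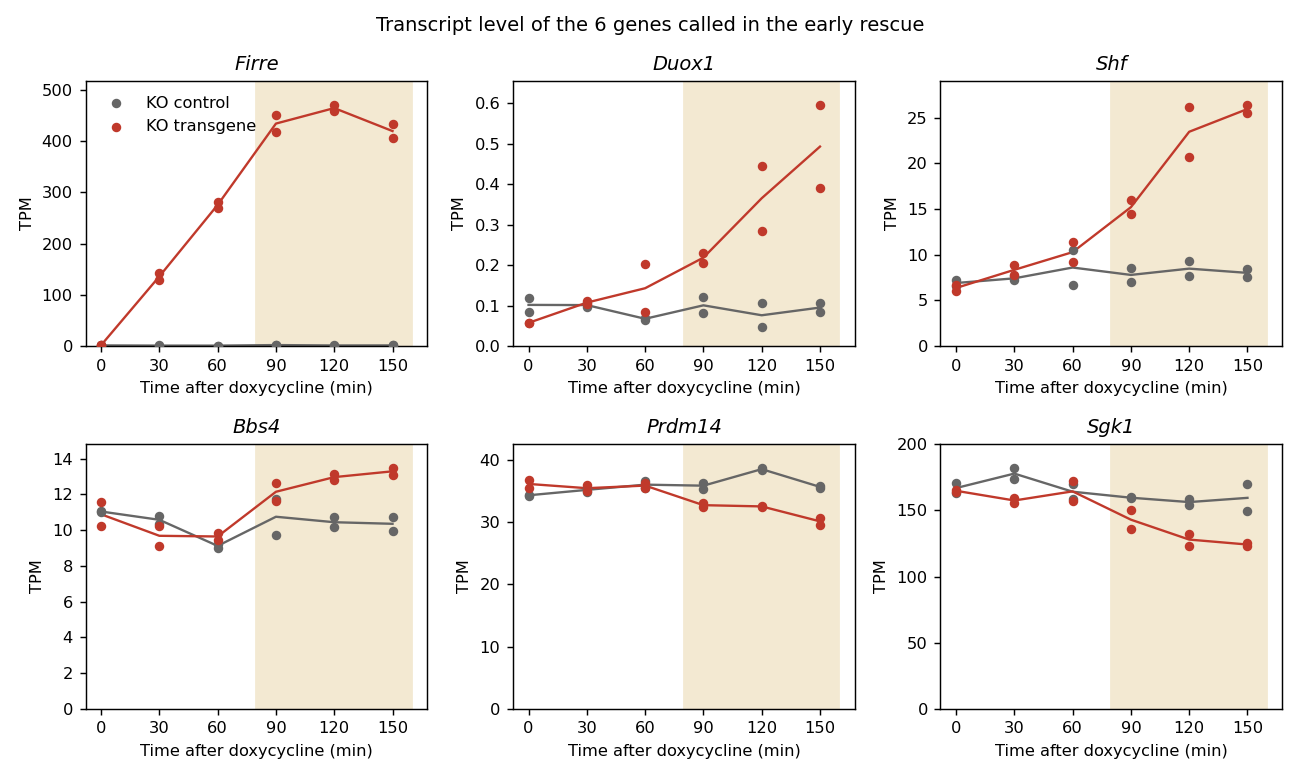
TPM (y axis, linear and starting at 0) against time after doxycycline in minutes (x axis) for the 6 called genes in the KO control and KO transgene lines, with 1 point per library and lines through the means of 2 libraries. Firre separates the lines from 30 min, and Shf and Duox1 climb in the transgene line to 150 min, while Prdm14 and Sgk1 end below the control line.

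Over the 6 libraries of the transgene line at 90 to 150 min, each called gene had moved further in the direction of its response than the control mean at the same time in 6 of 6, measured as log2(CPM + 0.5) against the 0 min mean of its line, a scale that understates the change of Duox1. On this scale the 6 transgene and 6 control libraries did not overlap for any of the 6 genes. That also held for 8.4% of all genes tested, and the 6 genes were selected on these values, so the count is a description. For Shf the changes ran from 1.08 to 2.05 in the transgene line and from 0.17 to 0.50 in the control line, and for Sgk1 from -0.42 to -0.17 and from -0.12 to -0.05.

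The order of onset put Firre first, then the Duox1 and Shf pair, then the other 3 genes. Onset was taken as the first of 30, 60, 90, 120 and 150 min with an unadjusted p below 0.05 in the direction of the early response that also held at every later time. By that rule Firre began at 30 min, Duox1 and Shf at 60 min, and Bbs4, Prdm14 and Sgk1 at 90 min. Of all genes, 6.56%, 2.84%, 9.83%, 3.5% and 4.35% had an unadjusted p below 0.05 at these 5 times, most at 90 min. How many of all genes met the whole rule was not counted. The time at which the log2 response, joined by straight lines, first reached the midpoint between 0 and its 90 to 150 min mean was 16.7 min for Firre, 44.3 for Duox1, 59.6 for Bbs4, 72.1 for Shf, 78.2 for Prdm14 and 78.4 for Sgk1. Bbs4 and Shf change places between these measures. The midpoint of Firre lies before the first sample at 30 min and holds for the log2 scale only. In TPM the mean of the transgene line was 136 at 30 min and 276 at 60 min, against 435 at 90 min. The later times chose the genes and all times share the 0 min libraries, so the order carries no test. The sampling step was 30 min, and genes placed at the same time cannot be ordered.

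With the adjusted p at each single time, the calls came later. At 30 min 2 genes were called (0.0111%), which were Firre and Ppm1b, a protein phosphatase gene with 0.31 ± 0.06 (adjusted p = 0.048). Ppm1b is outside the rule for named genes and was picked out after its values were seen. Its response was 0.02 ± 0.06 at 60 min, and at 30 min it was also called with DESeq2 and with a replicate block, but not with RLE size factors, without replicate 1 or 2, or with only the KO lines. At 60 min Firre was the 1 gene called (0.00555%), with 511 genes at an unadjusted p below 0.05. Shf joined it at 90 min, when 2 genes were called (0.0111%), and Duox1 and Prdm14 at 120 min, when 4 were called (0.0222%). At 150 min 5 were called (0.0278%), the fifth being Cdh3, the gene of P-cadherin, with 0.58 ± 0.12 (adjusted p = 0.040). Bbs4 and Sgk1 had adjusted p of 0.073 and 0.069 at 150 min and were called only over the 3 times together.

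**Figure D2:**
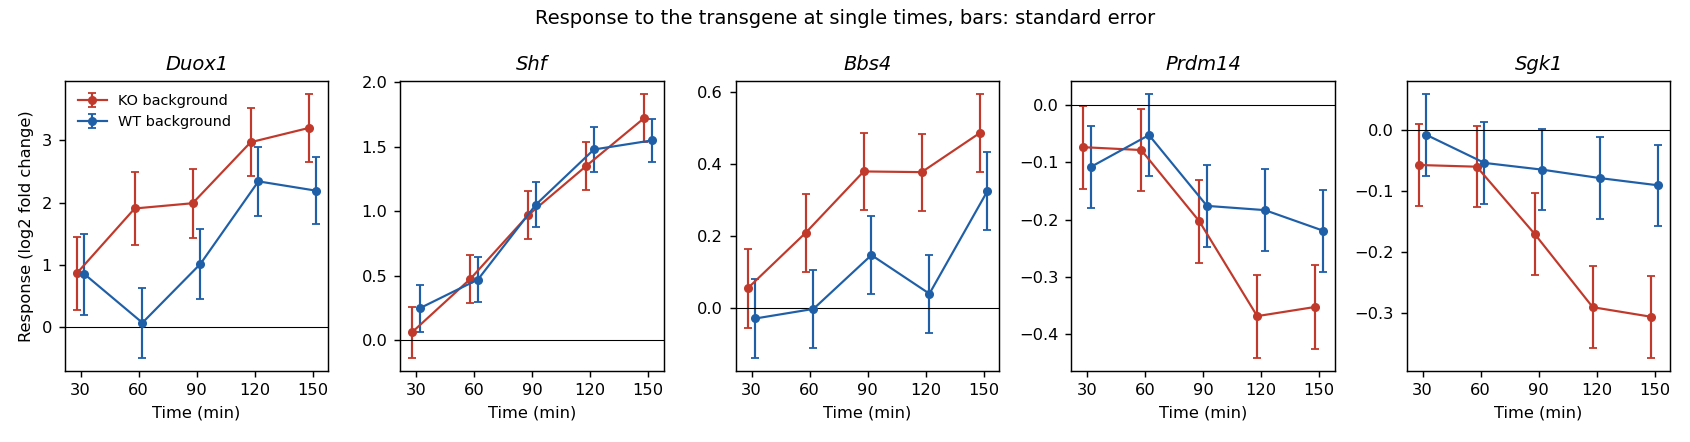
Response (y axis, log2 fold change against control and 0 min, bars of 1 SE) at single times after doxycycline (x axis, minutes) for the called genes other than Firre, in the KO (rescue) and WT (overexpression) backgrounds. In the rescue Shf passes from 0.06 at 30 min to 1.72 at 150 min and Duox1 from 0.87 to 3.20, while Prdm14 and Sgk1 stand below 0 from 90 min.

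Duox1 had a response of 0.87 ± 0.59 at 30 min and 1.91 ± 0.58 at 60 min, where its libraries held 12 and 26 reads against 9 and 9. It then gave 1.99 ± 0.55, 2.97 ± 0.55 and 3.20 ± 0.54 at 90, 120 and 150 min. Bbs4 went from 0.05 ± 0.11 at 30 min and 0.21 ± 0.11 at 60 min to 0.38 ± 0.11 at 90 min, and it reached 0.49 ± 0.11 at 150 min. Prdm14 had -0.07 ± 0.07 at 30 min and -0.08 ± 0.07 at 60 min, then -0.20 ± 0.07, -0.37 ± 0.07 and -0.35 ± 0.07 at 90, 120 and 150 min. Sgk1 had -0.06 ± 0.07 at both 30 and 60 min and stood at -0.17 ± 0.07, -0.29 ± 0.07 and -0.31 ± 0.07 afterwards. The responses of all 5 genes at 30 min were smaller than at 150 min, and neighbouring times were not tested against each other.

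A list of 23 genes had been put together as Firre responders of the long time course. One member, Fgfbp3, was called at no long-course time in either background (adjusted p = 0.55 to 0.98). The list was drawn from earlier results of this series and is no independent evidence of direction. All 23 were tested, 3 were called higher in the early rescue (Shf, Duox1 and Bbs4, beside 0.0222% of all genes called higher) and none lower. At an unadjusted p below 0.05, 12 were higher and 1 was lower, beside 2.64% and 3.4% of all genes, and the median of the list was 0.17. Over the 5 times from 30 to 150 min the median was -0.01, 0.07, 0.14, 0.20 and 0.26.

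Other list members fell short of the threshold. Nceh1, the neutral cholesterol ester hydrolase gene, stood at 7.74 and 7.55 TPM in the control and 8.24 and 6.78 TPM in the transgene line at 0 min, and at 8.30 and 7.96 against 11.2 and 10.8 TPM at 150 min. Its early response was 0.41 ± 0.11 (adjusted p = 0.23) with an onset of 90 min. Cdh3 went from 4.60 and 3.81 TPM in the control and 4.22 and 3.94 in the transgene line to 4.20 and 4.31 against 6.38 and 6.33 TPM at 150 min, with an early response of 0.39 ± 0.10 (adjusted p = 0.23). For both genes the lines overlapped at 0 min and did not at 150 min.

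Fst, the gene of the activin antagonist follistatin, had 0.39 ± 0.11 (adjusted p = 0.33), and its transgene libraries at 150 min stood at 15 and 15.3 TPM against 11.1 and 9.55 in the control. Adgrg1, an adhesion G protein-coupled receptor gene, had 0.97 ± 0.29 (adjusted p = 0.39). On the TPM scale its transgene libraries stood above the control before induction, at 1.23 and 0.932 against 0.544 and 0.504. In the test on counts the lines differed at 0 min by 0.26 ± 0.25 (transgene minus control, adjusted p = 0.73). At 150 min the transgene libraries of Adgrg1 stood at 1.72 and 1.49 TPM against 0.514 and 0.313 in the control. Ppp1r2, an inhibitor subunit gene of protein phosphatase 1, had 0.23 ± 0.07, and Umps, the last enzyme of pyrimidine synthesis, 0.20 ± 0.06 (adjusted p = 0.38 and 0.36). Nceh1, Fst, Ppp1r2 and Umps met the onset rule at 90 min, Adgrg1, Cdh3 and the BAF subunit gene Dpf2 at 120 min, as did Pramel7 in the lower direction, and Apod, Arih1 and the guanine nucleotide enzyme gene Impdh1 at 150 min. The rule uses the unadjusted p, which was below 0.05 for 9.83%, 3.5% and 4.35% of all genes at these 3 times.

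Apod, an apolipoprotein gene, had 0.58 ± 0.29, Dpf2 0.17 ± 0.06, Impdh1 0.11 ± 0.08 and Pramel7, a PRAME family gene, -0.29 ± 0.14, none of which passed. Impdh1 and the members not yet described had an unadjusted p above 0.05. Gfap, the glial filament gene, had 0.99 ± 0.61, Rapgef4, the Rap exchange factor gene, -0.33 ± 0.59, and Acap2 0.13 ± 0.07. For Epx, Fgfbp3, Cap2, Cemip, Slc2a4 and Trh the responses lay between -0.13 and 0.14. At these errors a change of the size seen for Bbs4 would not have passed in Gfap, Rapgef4, Epx, Fgfbp3 or Slc2a4. The same holds for Cap2 and Cemip, with standard errors of 0.23 and 0.14.

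**Figure D3:**
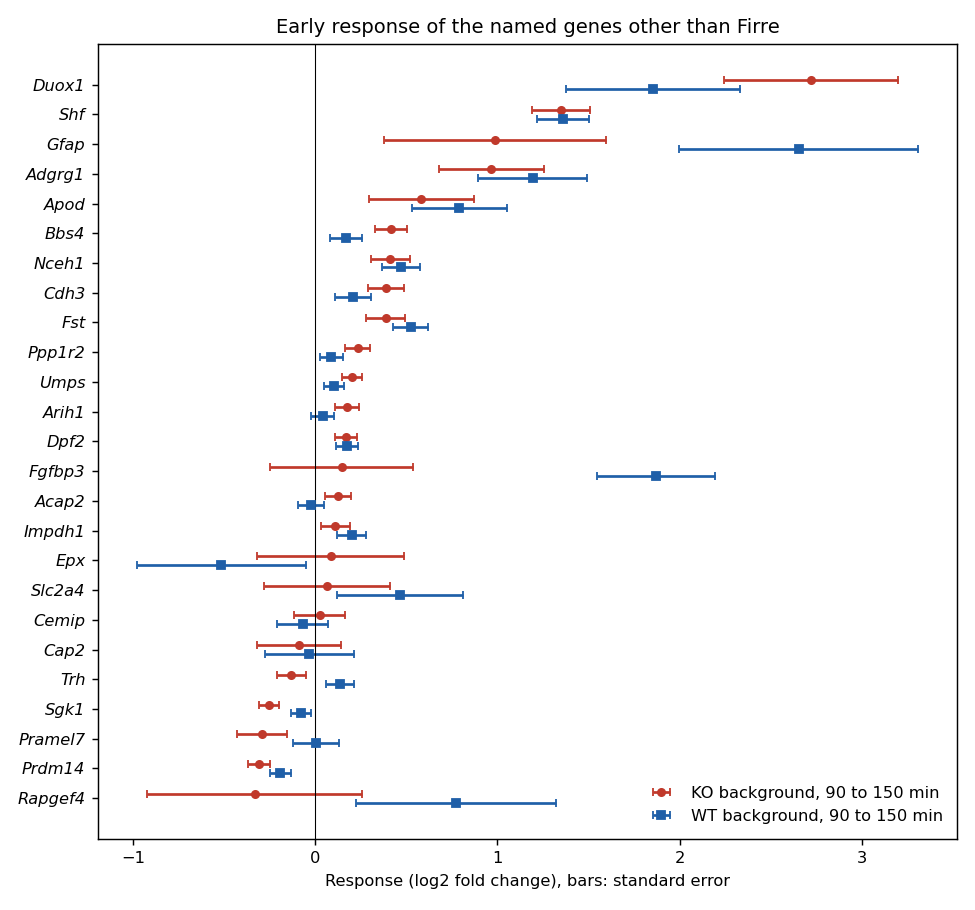
Early response (x axis, log2 fold change, bars of 1 SE) of the 25 named genes other than Firre (y axis) in the KO background (rescue) and the WT background (overexpression). Shf stands at 1.35 and 1.36 in the 2 backgrounds, and Duox1 at 2.72 and 1.85 with wider bars, while Fgfbp3 stands at 0.14 in the rescue and 1.87 in overexpression.

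In cells with their own Firre, Shf also rose within the same hours. The WT transgene line held 45.5 and 41.4 TPM of Firre at 0 min, and 944 to 1240 TPM at 90 to 150 min. In CPM its 0 min libraries overlapped the WT control, with 69.2 and 61.2 against 57.5 and 71.2. In the WT transgene line Shf stood at 9.30 and 7.86 TPM at 0 min and at 29.3 and 29.5 TPM at 150 min. At 150 min Shf held 9.08 and 10.6 TPM in the WT control, with no overlap. Its early overexpression response was 1.36 ± 0.14 (adjusted p = 5.97e-10), and the rescue response minus this was -0.01 ± 0.22 (adjusted p = 1). Early overexpression called 5 genes (0.0278%), which were Firre, Shf, Fst, Zfp367 and Fgfbp3, all higher. Zfp367, a zinc finger gene outside the rule for named genes and picked out after its values were seen, had 0.36 ± 0.07 there (adjusted p = 0.017) and 0.29 ± 0.07 in the rescue (adjusted p = 0.23).

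Of the other 4 early rescue genes none was called in early overexpression. Duox1 had 1.85 ± 0.48 there (adjusted p = 0.33), Prdm14 -0.19 ± 0.06, Bbs4 0.17 ± 0.09 and Sgk1 -0.08 ± 0.05 (adjusted p = 1 for these 3). The differences between the backgrounds were 0.87 ± 0.68 for Duox1, 0.24 ± 0.12 for Bbs4, -0.11 ± 0.08 for Prdm14 and -0.18 ± 0.08 for Sgk1, and none passed (adjusted p = 0.95 to 0.96). For Duox1 and Prdm14 the changes from 0 min did not overlap between transgene and control libraries in WT either, which held for 4.13% of all genes there. For Prdm14 they ran from -0.17 to -0.07 in the transgene line and from 0.04 to 0.10 in the control line. Its overexpression response had an unadjusted p of 0.0015 in the edgeR quasi-likelihood test. For Bbs4 the changes overlapped in WT. For Sgk1 the lines overlapped in WT, where the transgene libraries were already lower at 0 min, with 142 and 144 TPM against 167 and 168 TPM. The test of the difference called 1 gene of 18009 (0.00555%), Firre, by 3.60 ± 0.38 (adjusted p = 8.61e-09), and 879 genes had an unadjusted p below 0.05. The starting levels of Firre were 1.38 and 1.94 TPM in the KO transgene line and 45.5 and 41.4 TPM in the WT transgene line, and their part in this difference was not tested.

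After the early window the response grew wider. The change from 90 to 150 min to 210 to 330 min, in which the 0 min libraries cancel, called 47 genes (0.261%), 38 of them higher. Of the 23 listed genes 13 were among them, all higher (Shf, Adgrg1, Nceh1, Fst, Cdh3, Ppp1r2, Umps, Apod, Rapgef4, Gfap, Dpf2, Impdh1 and Acap2). Rapgef4 rose by 2.64 ± 0.33 over this step (adjusted p = 1.46e-07), Impdh1 by 0.40 ± 0.05 and Dpf2 by 0.34 ± 0.04. Shf rose by a further 0.65 ± 0.09 (adjusted p = 5.71e-07). For the other early genes the step was 0.49 ± 0.24 for Duox1, 0.16 ± 0.05 for Bbs4, -0.02 ± 0.04 for Prdm14 and 0.11 ± 0.03 for Sgk1, none of which passed (adjusted p = 0.25 to 0.92). In between, the single time of 180 min called 735 genes in the rescue (4.08%), 526 of them lower, against 21 in overexpression (0.117%). No alternative was run for that time and it enters no other comparison here.

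The long time course, made of separate libraries with 3 replicates per line and time, gives a check of the early genes on data they were not chosen from. At 720 min 4 of the 5 genes other than Firre were called in the same direction, where 0.854% of all genes were called. Shf had 2.02 ± 0.10 (adjusted p = 8.89e-25), Duox1 2.97 ± 0.39 (adjusted p = 8.60e-08), Bbs4 0.50 ± 0.08 (adjusted p = 3.88e-05) and Sgk1 -0.16 ± 0.04 (adjusted p = 0.032). Prdm14 had -0.08 ± 0.07 (adjusted p = 0.86). Leaving out any 1 replicate of the long course gave 3 of 5, with Sgk1 lost. At 1440 min 4 of 5 were called (6.46% of all genes), and at 2880 and 5760 min 3 of 5 (4.83% and 5.35%), which were Shf, Duox1 and Bbs4. In long-course overexpression 3 of 5 were called at 720, 1440, 2880 and 5760 min, where 0.581%, 1.85%, 2.56% and 8.23% of all genes were called. At 720 min there Shf had 2.15 ± 0.12, Duox1 4.26 ± 0.43 and Bbs4 0.40 ± 0.08 (adjusted p = 0.0042).

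Beyond Prdm14, no gene of the pluripotency lists passed with the settings used throughout. Of 16 naive pluripotency genes tested, 1 was called lower (0.0111% of all genes) and none higher, 4 were lower at an unadjusted p below 0.05 (3.4% of all genes), and the median was -0.12. Nanog had -0.17 ± 0.05 (adjusted p = 0.54), Tbx3 -0.23 ± 0.09 and Klf4 -0.18 ± 0.08, all transcription factors of the naive state. At 0 min the transgene line differed from the control by -0.04 ± 0.05 for Nanog, 0.23 ± 0.08 for Tbx3 and 0.16 ± 0.07 for Klf4. These values are subtracted in the response, and their part in it was not tested. Of 12 general pluripotency genes none was called, 3 were lower at an unadjusted p below 0.05 (3.4% of all genes), and Sox2 had -0.21 ± 0.05 (adjusted p = 0.23). Sox2 was called with a replicate block and with a baseline of 0 and 30 min. The medians of these lists were -0.08 and -0.04 in early overexpression. In bulk RNA fewer cells of a type and less RNA per cell cannot be told apart.

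Of 14 targets of BMP and Nodal signalling tested none was called with these settings. At an unadjusted p below 0.05, 6 were lower and 1 higher (3.4% and 2.64% of all genes), and the median was -0.14. Id3, an inhibitor of helix-loop-helix factors and a direct BMP target, had -0.52 ± 0.12 (adjusted p = 0.13), and Id4 had -0.38 ± 0.12 (adjusted p = 0.57). Id3 was called with DESeq2, with a replicate block and without replicate 2 of the control at 0 min. Before induction the transgene line stood above the control by 0.33 ± 0.10 for Id3, 0.29 ± 0.11 for Id4, 0.36 ± 0.13 for Smad6 and 0.42 ± 0.14 for Lefty1 (adjusted p = 0.16 to 0.25). These 4 are among the 6 lower genes, 0 min is subtracted in the response, and the part of these differences in it was not tested. Fst was the 1 member higher at that level. Ror2, a Wnt receptor gene, and Mycn, a Myc family gene, were the other 2 of the 3 genes nearest to the threshold, with -0.41 ± 0.09 (adjusted p = 0.0999) and -0.33 ± 0.08 (adjusted p = 0.16). Id3, Ror2 and Mycn were picked out by their p.

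Lists of general stress and signalling held no call. Of 21 immediate early genes none was called and 3 were lower at an unadjusted p below 0.05 (3.4% of all genes), with a median of -0.08. In the lists of 15 p53 targets, 12 heat shock genes, 14 G1/S genes, 16 G2/M genes and 19 Firre partner genes, no gene had an unadjusted p below 0.05. Of 14 glycolysis and hypoxia genes 3 were lower at that level (again beside 3.4% of all genes), led by the glucose transporter gene Slc2a1 with -0.29 ± 0.08 (adjusted p = 0.23). Of 13 genes flanking Firre on the X chromosome 10 were tested, none had a response with an unadjusted p below 0.05 and the median was 0.06. The member Usp26 differed between the KO lines at 0 min by -1.08 ± 0.13 (transgene minus control, adjusted p = 5.55e-08). Its response was 0.04 ± 0.15. Of 5 genes reported as trans contacts of Firre none was called, and Ppp1r10, a phosphatase 1 subunit gene, had -0.27 ± 0.08 (adjusted p = 0.39). Before induction the transgene line stood above the control by 0.27 ± 0.07 for Ppp1r10 (adjusted p = 0.067). For Slc2a1 this difference was 0.24 ± 0.07 (adjusted p = 0.10). Both are subtracted in the response, and their part in it was not tested.

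The KO lines differed before induction, and these values enter every response with the opposite sign. At 0 min 29 genes were called between the lines (0.161%), 12 of them higher in the transgene line (0.0666%), and 2233 had an unadjusted p below 0.05. The count of 29 became 0 without replicate 1 and 290 without replicate 2 of each line. Where 0 min was not subtracted, the lines differed in 506 genes at 90 to 150 min (2.81%). The called early genes were not among the 29. At 0 min they differed by 0.24 ± 0.31 for Firre, -0.13 ± 0.14 for Shf, -0.85 ± 0.44 for Duox1 and -0.18 ± 0.08 for Bbs4. For Prdm14 and Sgk1 the differences were 0.06 ± 0.05 and -0.05 ± 0.05. Bbs4 alone had an unadjusted p below 0.05 (0.024, edgeR quasi-likelihood test). The differences of Shf, Duox1, Bbs4 and Prdm14 were opposite in sign to their responses. Among the 34 genes next in order of p after the 6 called, 32 differed between the lines at 0 min in the direction opposite to their response. Of the 34, 24 had an unadjusted p below 0.05 at 0 min, beside 12.4% of all genes. The responses that ranked these genes subtract the same 0 min values, so the counts are a description.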

How the data were processed

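The series profiled polyadenylated RNA with the unstranded TruSeq RNA v2 kit. Per the submitters' processing notes, Salmon 1.5.2 and the mm10 assembly were used. How transcripts were summed to genes is not given in the sources used here. The deposited tables hold expected counts and TPM per gene and library, and TPM was used here only to show levels. Of the deposited expected counts 76.0% were exactly whole, and the others were rounded to whole numbers. No column or row of other samples was used.

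The 96 short-course libraries were fitted together with edgeR 4.0.16 (R 4.3.3), with TMM factors, default filtering of low counts (minimum count 10, total 15), 1 coefficient per line and time, and robust quasi-likelihood tests with 48 residual degrees of freedom. Every contrast was adjusted by the Benjamini-Hochberg method over all genes tested, with a threshold of 0.05, and errors of log2 fold changes are standard errors. The 60 long-course libraries were fitted separately in the same way. Alternatives were DESeq2 1.42.0, other size factors, no filter, a replicate block, smaller sets of libraries, other baselines and windows, a fold threshold, and leaving out libraries.

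Named genes were Firre and Shf, and up to 12 called genes each way with a mean CPM of at least 1. Up to 3 called members of each list were added. So were the 5 called genes of earliest onset and all 23 genes of the long-course list. Duox1, with a mean CPM under 1, entered as one of the earliest and as a list member. Genes were matched by versioned gene identifier to GENCODE M21 for positions, and by symbol to RefSeq for promoters. A position was found for 17484 of 18009 tested genes, and genes without one could not enter the search for neighbours. The members and lists were chosen with earlier results of these data known.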

Additional observations from a re-analysis of the deposited data

Results flagged for a closer look

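The early response of Firre differed between the backgrounds by 3.60 on the log2 scale, larger in the knockout lines than in the wild-type lines (7.86 ± 0.42 against 4.25 ± 0.13, adjusted p = 8.61e-09 by the edgeR quasi-likelihood test of the difference). The transgene libraries at 90 to 150 min held 407 to 471 TPM in the knockout and 944 to 1240 TPM in the wild-type background, so the larger fold belonged to the lower final level and to the lower start. No other gene differed between the backgrounds at this threshold.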

How the results depend on the processing

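Firre, Shf and Duox1 were the early genes least tied to the settings. Firre and Shf stayed past the threshold in all 18 fits that left out libraries (responses of 7.62 to 8.12 and of 1.23 to 1.46), Duox1 in 15 (1.83 to 3.54), Prdm14 in 13 (-0.35 to -0.27), Bbs4 in 4 (0.33 to 0.51) and Sgk1 in 3 (-0.30 to -0.20), and none of these 6 reversed. The early count of 6 became 7 with DESeq2 (the 6 and Id3), 6 with RLE size factors, 9 with a baseline of 0 and 30 min, 4 and 7 with windows of 90 and 120 min and of 120 and 150 min, and 3 with a window of 90 and 150 min, with only the 48 libraries of the KO lines and with a fold threshold of 0.2 (Firre, Shf and Duox1 in each). It became 2 with only the 16 libraries of the contrast (Firre and Shf, with Duox1 at an adjusted p of 0.22), and 506 without the 0 min baseline, where differences between the lines are not subtracted. Leaving out libraries gave 2 to 6.

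Without the filter on low counts, the counts became 77 for the early rescue, with 4 of the 6 genes still called (Prdm14 and Sgk1 had adjusted p of 0.15 and 0.28), and 85, 53, 115, 60 and 76 at 30, 60, 90, 120 and 150 min. They became 62 for early overexpression, 67 for the difference between backgrounds, 175 for the late minus early step and 261 for the lines at 0 min. The cause was not tested.

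The replicate numbers are not said to pair the libraries. Across 28 pairs of groups, deviations of same-numbered libraries had correlations of -0.02 to 0.50 with a median of 0.34, and 25 were above 0.1. With a replicate block the early rescue called 10 genes, the 6 with Id3, Nceh1, Ror2 and Sox2. The block gave 5 at 90 min, 10 for early overexpression, 102 for the late minus early step and 210 for the lines at 0 min.

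With only the KO lines, 1 gene was called at 30 min and 1 at 90 min, 3 at 150 min, 24 for the late minus early step and 8 for the lines at 0 min. RLE factors gave 1 at 30 min, and DESeq2 gave 64 for the lines at 0 min. Leaving out replicate 1 or 2 gave 1 to 1 at 30, 60 and 90 min, 1 to 3 at 120 min, 2 to 3 at 150 min, 3 to 4 for early overexpression, 1 to 2 for the difference between backgrounds, 16 to 28 for the late minus early step, 0 to 290 for the lines at 0 min, and 3 to 3 for the early genes at 720 min. By adjusted p the onset was 90 min for Shf, 120 min for Duox1 and 120 min for Prdm14.

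Reversals were seen only for genes that were not called in the early rescue. With a window of 90 and 150 min Epx had -0.017 and Slc2a4 -0.092, and with one of 120 and 150 min Fgfbp3 had -0.069 and Cemip -0.0015. With a baseline of 0 and 30 min Cemip had -0.019. Leaving out libraries gave -1.21 to 0.26 for Rapgef4, -0.051 to 0.23 for Epx, -0.34 to 0.61 for Fgfbp3, -0.20 to 0.047 for Cap2, -0.13 to 0.19 for Cemip, -0.32 to 0.37 for Slc2a4 and -0.0064 to 0.24 for Impdh1.

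Of the 6 called genes Duox1 had the fewest reads, with 6 to 17 reads in the 0 min libraries of the KO lines, and each line has 2 libraries at 0 min, which enter every response.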
